A study of Sus scrofa with 2 samples.

Results

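Cycling granulosa cells were those cells of the follicle wall and cumulus that carried transcripts of cell division. They were chosen by their own counts: a cell was taken when its raw UMIs (unique molecular identifiers, each standing for 1 captured transcript) of TOP2A, UBE2C and CENPF summed to 5 or more. The cells came from barcodes with 2000 to 5000 detected genes and under 7% of UMIs from the 13 mitochondrial genes. This gave 546 cycling cells of 17205 cells within these limits and of 29837 barcodes in all. Cells inside the same limits in which the 3 genes summed to 0 served as comparison cells and numbered 15543, and 1116 cells with a sum of 1 to 4 were put in neither set.

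The somatic cells of 2 antral follicles of 1 pubertal Landrace × Yorkshire gilt, aged 210 days, were profiled by single-cell RNA sequencing on the 10x Genomics 3′ platform, and each follicle gave 1 library. The labels give both follicles a diameter above 7 mm, and the methods of the study state that the animal had received pregnant mare serum gonadotropin (PMSG), so both follicles share that treatment and there is no untreated follicle. The libraries are named AF75 (follicle 1) and AF76 (follicle 2). They differ in no labelled treatment, and a difference between them has no replicate follicle behind it. Both libraries were deep, with 125409747 UMIs in AF75 and 127414267 in AF76. The libraries shared 56 barcodes, 18 of them within the limits in both, and no cell was called cycling in both.

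Granulosa cells surround the oocyte, make estradiol from androgens of the theca, and secrete inhibins and activins. They divide through most of follicle growth and leave the cycle when the follicle luteinizes. A dividing cell first licenses and copies its DNA in S phase and makes nucleotides and histones for it. In G2 and mitosis it then builds up the cyclin B and CDK1 kinase, assembles a spindle on the kinetochores and, through the anaphase promoting complex, separates the chromosomes. Many genes of G2 and mitosis have CCAAT boxes and a cell cycle homology region (CHR) near the start of transcription, and many genes of S phase have E2F motifs.

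The promoters of 6 of these genes are printed below, because the genes were high in the cycling cells together: TOP2A and UBE2C, which chose the cells, CDK1 and its cyclin CCNB1, and PCLAF and ATAD2 of S phase. Each window runs from 250 bases before to 30 bases after the RefSeq gene start in Sscrofa11.1, 5′ to 3′ on the gene's strand. Capitals mark 3 kinds of match, each searched on both strands, and matches may overlap. The CHR was searched as TTTGAA. A variant of it, TTCGAA, was counted with it. The CCAAT box was searched as these letters alone. The E2F motif was searched as TTTCGCG, and a further variant was counted too, spelled TTTGGCG. The windows are TOP2A at chr12:22001050-22001329, plus strand, UBE2C at chr17:48018153-48018432, plus strand, CDK1 at chr14:64233695-64233974, plus strand, CCNB1 at chr16:47337989-47338268, plus strand, PCLAF at chr1:107659259-107659538, plus strand, and ATAD2 at chr4:16012028-16012307, plus strand.
TOP2A: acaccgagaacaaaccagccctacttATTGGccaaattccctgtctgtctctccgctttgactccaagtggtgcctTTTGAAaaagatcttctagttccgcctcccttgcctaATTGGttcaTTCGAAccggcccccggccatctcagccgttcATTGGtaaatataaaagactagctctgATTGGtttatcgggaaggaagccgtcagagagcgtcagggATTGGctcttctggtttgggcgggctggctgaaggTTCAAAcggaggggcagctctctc
UBE2C: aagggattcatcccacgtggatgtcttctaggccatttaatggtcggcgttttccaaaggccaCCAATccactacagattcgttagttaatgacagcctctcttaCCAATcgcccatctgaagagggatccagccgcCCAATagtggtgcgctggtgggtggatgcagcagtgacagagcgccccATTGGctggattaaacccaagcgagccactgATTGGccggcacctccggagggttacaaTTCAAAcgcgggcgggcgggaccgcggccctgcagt
CDK1: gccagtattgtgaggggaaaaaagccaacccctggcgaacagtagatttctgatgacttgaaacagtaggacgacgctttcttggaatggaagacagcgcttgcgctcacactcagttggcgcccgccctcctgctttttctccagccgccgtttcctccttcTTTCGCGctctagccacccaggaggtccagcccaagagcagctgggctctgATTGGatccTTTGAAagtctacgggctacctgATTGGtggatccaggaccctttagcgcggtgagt
CCNB1: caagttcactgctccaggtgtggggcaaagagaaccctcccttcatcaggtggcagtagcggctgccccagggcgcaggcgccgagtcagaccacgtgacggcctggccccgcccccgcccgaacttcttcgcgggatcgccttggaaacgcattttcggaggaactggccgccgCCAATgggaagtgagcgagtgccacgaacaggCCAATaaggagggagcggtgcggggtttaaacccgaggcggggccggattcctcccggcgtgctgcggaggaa
PCLAF: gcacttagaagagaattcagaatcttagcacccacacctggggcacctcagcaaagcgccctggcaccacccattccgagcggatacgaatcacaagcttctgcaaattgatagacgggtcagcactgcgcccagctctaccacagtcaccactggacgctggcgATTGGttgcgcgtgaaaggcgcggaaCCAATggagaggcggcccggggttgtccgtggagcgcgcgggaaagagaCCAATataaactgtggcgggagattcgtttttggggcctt
ATAD2: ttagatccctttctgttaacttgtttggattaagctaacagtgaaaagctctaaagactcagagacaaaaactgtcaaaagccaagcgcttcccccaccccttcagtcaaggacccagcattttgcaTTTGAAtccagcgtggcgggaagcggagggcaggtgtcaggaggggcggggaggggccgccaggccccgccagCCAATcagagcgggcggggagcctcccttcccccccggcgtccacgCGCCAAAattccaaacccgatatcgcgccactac

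TOP2A and UBE2C each held 5 CCAAT matches, PCLAF held 3, CDK1 and CCNB1 2 each, and ATAD2 1. In CCNB1 and in CDK1 the starts of the 2 CCAAT matches lay 32 bases apart. UBE2C, CDK1 and ATAD2 held 1 CHR match each, TOP2A held 3, and CCNB1 and PCLAF held none in this window. CDK1 and ATAD2 held 1 E2F match each. Over 19506 RefSeq promoters of protein coding genes, 14.9% held a CHR match, 34.2% a CCAAT match, 3.17% an E2F match, and 5.53% both CHR and CCAAT. In the 105 promoters of the 4 lists of mitotic kinases, kinetochore, spindle and cytokinesis genes these shares were 37.1%, 61.0%, 14.3% and 29.5%. In the 62 promoters of both S phase lists they were 17.7%, 56.5%, 17.7% and 14.5%. A match is a run of letters and not a bound site, and the gene start of the annotation need not be the start of transcription.

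The cycling cells made up 4.57% of the AF75 cells within the limits (428 of 9362, 95% interval 4.16–5.01) and 1.5% of those of AF76 (118 of 7843, 1.25–1.80). Intervals for shares are Clopper-Pearson and cover counting error only. The sum of the 3 genes that chose the cells had a median of 17 UMIs in AF75 (5 to 61) and of 22 in AF76 (5 to 106). All 3 genes were present in 89.5% of the cycling cells of AF75 and 88.1% of those of AF76. At the border of the rule, 28 cells of AF75 and 3 of AF76 had a sum of exactly 5, and 24 and 4 cells had a sum of 4. The cycling cells of AF75 held 7005799 UMIs together and those of AF76 2240025, against 94894529 and 101388233 in the comparison cells. The values below are CPM (counts scaled to a sum of 1e+06) of these sums, so they state a gene's share of the UMIs of a set of cells.

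The cycling cells were larger libraries than the comparison cells. Their median was 15931.5 UMIs per cell in AF75 against 11050 in the comparison cells, and 19163 against 13828 in AF76. They had 3902.5 genes per cell against 3128 in AF75 and 4194 against 3467 in AF76. When each cell was thinned at random to 5000 UMIs, the medians were 2027 against 1969 genes and 2004.5 against 1950. Because the rule counts raw UMIs, a deep cell reaches it more easily: applied after thinning, the rule took 2.71% of AF75 cells and 0.943% of AF76 cells. The median mitochondrial share was 2.36% against 2.60% in AF75 and 3.09% against 2.96% in AF76. Of the cycling cells, 7.24% in AF75 and 13.6% in AF76 were among the 6.9% of cells with the highest doublet score of their follicle, against 6.62% and 6.70% of the comparison cells. The part of doublets in the results was not tested beyond their removal, which left shares of 4.55% and 1.4%.

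The label of granulosa cells was checked against its markers. INHA, the alpha subunit of inhibin, was found in every cycling cell, also after thinning, and in every thinned comparison cell too. It stood at 12161.9 CPM in AF75 and 17612.3 in AF76, against 20485.1 and 23348.2 in the comparison cells. SERPINE2, a protease inhibitor of the follicle, was at 4983.6 and 5265.6 CPM against 6997.6 and 6648.9. CYP11A1, the first enzyme of steroid synthesis, was at 1612.2 and 1775.0 CPM against 1697.5 and 1676.7. NR5A2, a nuclear receptor of granulosa cells, was at 644 and 605 CPM against 565 and 482. NR5A1 was at 14.7 and 8.93 CPM against 11.2 and 10, and GJA1 at 1233.1 and 756 against 917 and 697. INHBA and CYP19A1 are given below. AMH had no UMI in the cycling cells, and FSHR, the receptor of follicle stimulating hormone, was at 3 and 1.34 CPM, also low in the comparison cells at 1.63 and 2.15 CPM. FOXL2 was not matched by name. The summed markers of leukocytes (12 genes) were at 8.99 CPM in the cycling cells of AF75 and 5.80 in AF76, against 13.3 and 14.8 in the comparison cells. PTPRC, LYZ, CD3E and CSF1R were at 0 in the cycling cells, and the other members held 63 and 13 UMIs. The summed markers of endothelium (6 genes) were at 9.14 and 9.82 CPM against 17 and 11.9.

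The first question was which genes differ between dividing and other granulosa cells of the same follicle. UMIs were summed over each set in each follicle, and the 4 sums were compared by edgeR's quasi-likelihood test with the follicle as a block. A gene was called when its Benjamini-Hochberg adjusted p was under 0.05 and its log2 difference was at least 1 either way. Of 12341 genes tested, 534 (4.33%) were called higher and 228 (1.85%) lower in the cycling cells. The counts of the lists below are to be read against these shares. Of the 762 called genes, 738 differed in the same direction in each follicle alone. The same follicles gave the calls, so that count is no separate check. The count of lower genes was 103 with DESeq2, 135 with each cell thinned to 5000 UMIs and 50 without the block. The p-values measure how the difference between the 2 sets of cells varies between 2 follicles of 1 animal, with that spread pooled over genes. The genes TOP2A, UBE2C and CENPF were left out of the test. They stood at 362, 390 and 421 CPM in the cycling cells of AF75 and at 442, 446 and 450 CPM in AF76, and at 0 in the comparison cells because the rule put them there. TPX2 and BIRC5, which mark the same cells and did not choose them, rose as well. TPX2, which activates Aurora A on the spindle, was at 151 CPM in AF75 and 155 in AF76 against 1.69 and 1.28 in the comparison cells, a log2 difference of 6.69 (SE 0.13). BIRC5 (survivin), a subunit of the chromosomal passenger complex, was at 114 and 123 CPM against 1.25 and 1.14 (6.63, SE 0.14).

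**Figure D1:**
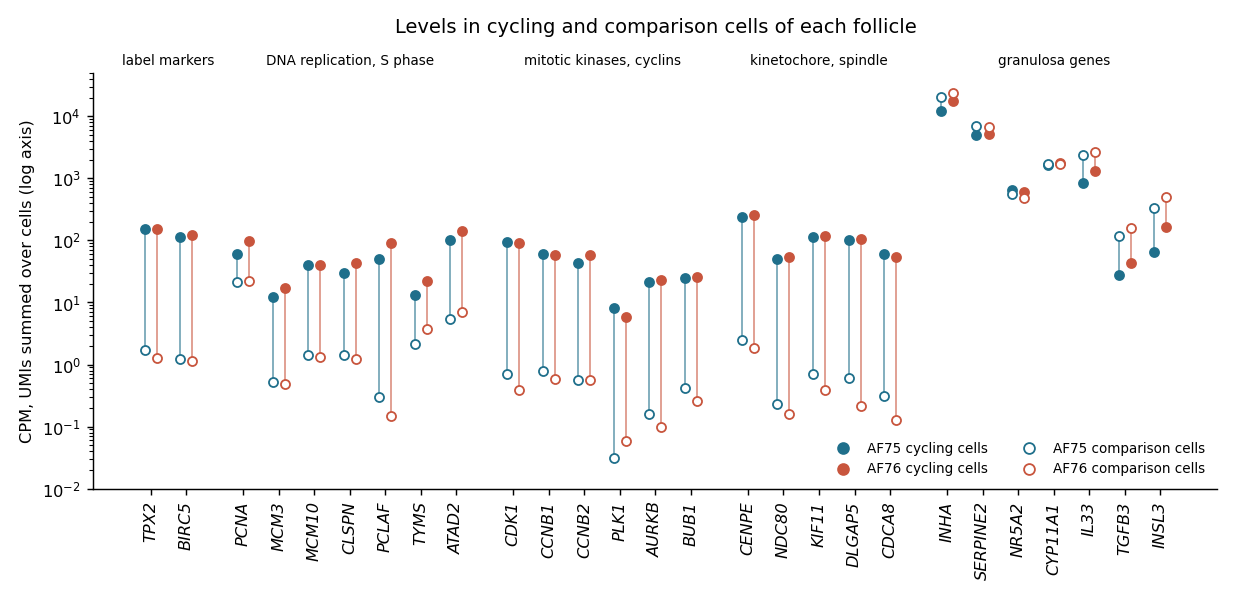
CPM of 27 genes on a log axis, with filled points for cycling cells and open points for comparison cells, AF75 in blue and AF76 in red, joined within a follicle. Most of the cell division genes lie far above their comparison level in both follicles, with PCNA nearer to it. NR5A2 and CYP11A1 lie close to their comparison level, INHA and SERPINE2 somewhat below it, and IL33, TGFB3 and INSL3 further below.

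Genes that license and copy DNA rose almost as a group. In the list of the replication fork 37 of 44 genes tested were higher and none lower, against 4.33% of all genes higher, with a median log2 difference of 2.07. PCLAF, which binds the sliding clamp PCNA, was at 49.5 CPM in the cycling cells of AF75 and 92.0 in AF76, against 0.295 and 0.148 in the comparison cells (log2 difference 8.27, SE 0.20). POLE, the catalytic subunit of the leading strand polymerase, was at 15 and 12.1 CPM against 0.116 and 0.0888. MCM10, needed to start the fork, was at 40.8 and 40.6 CPM against 1.42 and 1.32 (4.89, SE 0.19). CLSPN, the fork protein claspin, was at 29.8 and 42.9 CPM against 1.41 and 1.23. PCNA itself was present in other granulosa cells too, at 21.6 CPM in AF75 and 22.4 in AF76, and was at 59.7 and 99.1 CPM in the cycling cells (1.79, SE 0.11). The licensing subunit MCM6 rose least among the MCM genes, from 35.4 to 75.1 CPM in AF75 and from 18.0 to 49.6 in AF76 (1.24, SE 0.12). A second set of comparison cells was drawn to the cycling cells' distribution of VCAN, a matrix gene that the study used to mark cumulus cells, and against these MCM6 was at 0.93 and was not called.

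The 7 genes of this list that were not called were CDC7, POLD2, POLD3, RFC1, RFC2, RPA1 and TIPIN. RFC1, the large subunit of the clamp loader, was at 66.9 and 72.8 CPM against 57.7 and 62.3, while RFC3, a small subunit of it, rose from 17.6 to 83.2 CPM in AF75 and from 15.6 to 69.6 in AF76. Members of 1 complex thus differed in how far they stood above the comparison cells.

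Nucleotide supply and the chromatin of S phase gave 16 of 20 genes higher and none lower, with a median of 2.6. ATAD2, a bromodomain ATPase of replicating chromatin, was at 102 CPM in AF75 and 140 in AF76 against 5.41 and 7.13 (4.27, SE 0.12). TK1, thymidine kinase, was at 23.6 and 27.2 CPM against 0.443 and 0.523, and TYMS, thymidylate synthase, at 13.4 and 21.9 against 2.12 and 3.67. DUT, which keeps uracil out of DNA, was the highest of those named here, at 166 and 205 CPM against 30 and 32.2 (2.57, SE 0.09). CDCA5 (sororin), which holds sister chromatids together, was at 18.0 and 20.5 CPM against 0.274 and 0.0888. UHRF1, which guides maintenance methylation to new DNA, was at 18.4 and 18.7 CPM against 0.769 and 0.454. Repair genes linked to replication gave 23 of 29 higher, with a median of 3.46. Among them POLQ, the polymerase of end joining, was at 30 and 32.6 CPM against 0.674 and 0.424 (5.81, SE 0.25), and BRCA1, of homologous recombination, at 19.1 and 23.7 against 2.20 and 2.53. ATR, the kinase at the head of the replication checkpoint, was at 9.42 and 8.93 CPM against 8.48 and 8.01 and was not called, while its effector kinase CHEK1 rose from 0.706 to 14 CPM in AF75 and from 0.681 to 25.4 in AF76.

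In the list of entry from G1 into S phase 6 of 24 genes tested were higher, namely CDKN3, RBL1, CDK2, E2F3, CDC25A and E2F2, and the median was 0.52. CDKN3, a phosphatase of CDK1 and CDK2, was at 73.5 CPM in AF75 and 84.4 in AF76 against 10.1 and 9.72 (2.99, SE 0.12). CDK2 rose from 6.14 to 16.0 CPM and from 5.73 to 21.9. The D cyclins did not differ by the call: CCND2 was at 13.8 CPM in the cycling cells of AF75 against 13.6, and at 5.80 in AF76 against 10.7. CDK4, the partner of the D cyclins, was at 110 and 112 CPM against 78.2 and 76.7. CDK6 was at 159 and 126 CPM against 204 and 178 (log2 difference -0.41, SE 0.09), and CCNE1, an E cyclin, stayed under 1 CPM in every sum. CDKN1B (p27), an inhibitor of these kinases, was at 37.8 and 44.6 CPM against 25.4 and 33.1 and was not called. In the list of genes of quiescence and arrest 1 of 20 tested was called, against 762 of all 12341 genes. It was CCNG1 (cyclin G1), which fell from 231 to 120 CPM in AF75 and from 318 to 143 in AF76 (-1.03, SE 0.09). Against the cells matched on VCAN, CCNG1 was at -0.84 and was not called.

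The cells were chosen by transcripts of G2 and mitosis, and other genes of these phases were high with them. Of the mitotic kinases, cyclins and their regulators 25 of 26 genes were higher, with a median log2 difference of 5.56. CDK1, the mitotic kinase, was at 95.1 CPM in AF75 and 92.0 in AF76 against 0.717 and 0.385 (7.41, SE 0.16). Its cyclins CCNB1 and CCNB2 were at 60.7 and 43.7 CPM in AF75 and at 58.9 and 57.6 in AF76, and all 4 values in the comparison cells were under 1 CPM. FOXM1, the transcription factor of G2 genes, was at 6.42 and 11.2 CPM against 0.0105 and 0.0197, counts too low in the comparison cells for its fitted value of 8.98 (SE 0.67) to be read closely. CDCA8 (borealin), of the passenger complex with BIRC5, was at 60.5 and 54.5 CPM against 0.316 and 0.128 (8.01, SE 0.21). NEK2, a kinase of the centrosome, and AURKB, the kinase of the passenger complex, were at 36.5 and 21.0 CPM in AF75 and at 40.6 and 23.2 in AF76. CKS2, a small partner of CDK1, was the most abundant of those named, at 353 and 359 CPM against 40.3 and 31.8 (3.31, SE 0.09). WEE1, the kinase that holds CDK1 inactive, was the member not called, at 192 and 261 CPM against 129 and 142 (0.73, SE 0.09).

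Of the kinetochore and checkpoint genes 34 of 39 were higher, with a median of 3.84. CENPE, the kinesin of the kinetochore, was at 239 CPM in AF75 and 255 in AF76 against 2.44 and 1.82 (6.86, SE 0.12). NDC80, which grips the microtubule, was at 50.1 and 54.9 CPM against 0.232 and 0.158, and SPC24 of the same complex at 123 and 149 against 1.15 and 0.799. CENPW, a histone-fold protein of the inner kinetochore, was the most abundant member, at 584 CPM in AF75 and 305 in AF76, and it was also higher in AF75 among the comparison cells, at 15.4 against 7.78. The checkpoint genes BUB3 and MAD1L1 were at 86.8 and 20.1 CPM in AF75 and at 97.8 and 19.2 in AF76 and were not called, while BUB1B and TTK of the same checkpoint rose from below 1 CPM to between 16.4 and 31.2 CPM. Of the spindle genes 25 of 30 were higher, with a median of 4.63. KIF11, the motor that pushes the poles apart, was at 113 and 116 CPM against 0.696 and 0.395 (7.72, SE 0.15), and DLGAP5 at 100 and 107 against 0.601 and 0.217 (7.99, SE 0.16). NUSAP1, a microtubule binding protein, was present in other granulosa cells too and rose from 53 to 245 CPM in AF75 and from 58.3 to 356 in AF76. The tubulins TUBB and TUBA1B, at over 1000 CPM in both sets, were at log2 differences of 0.48 and 0.61 and were not called.

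Of the cytokinesis genes 8 of 12 were higher, namely KIF23, RACGAP1, ECT2, ANLN, CIT, CEP55, SHCBP1 and PIMREG, which build the midzone and the midbody or act in mitosis, and RHOA, SEPT7, SEPT9 and NIFK were not called. ANLN (anillin) was at 53.5 and 62.9 CPM against 2.02 and 1.89, and RHOA at 419 and 429 against 410 and 401. In the list of the anaphase promoting complex 5 of 17 genes tested were higher, with a median of 0.27: CDC20, its mitotic activator, at 28.5 and 40.6 CPM against 0.632 and 0.621 (5.75, SE 0.24), UBE2S, its chain-extending enzyme, at 261 and 260 against 69.7 and 69.0, FBXO5 (EMI1), its inhibitor, at 20.4 and 19.2 against 0.906 and 0.878, ESPL1 (separase) at 4 and 7.14 against 0.0211 and 0.0197, and the subunit CDC23 at 18.4 and 12.9 against 6.93 and 7.20. No other core subunit tested was called, and the second activator FZR1, which acts after mitosis and in G1, was at 29.8 and 32.6 CPM against 26.3 and 25.1. In mitotic chromosome structure 16 of 26 genes were higher, with a median of 1.15. The condensin subunits SMC2 and SMC4 rose, SMC2 from 13.3 to 214 CPM in AF75 and from 16.5 to 215 in AF76, and HMGB2, a chromatin protein, rose from 111 to 615 and from 140 to 805. By contrast the cohesin subunits SMC1A, SMC3 and RAD21 were at log2 differences of 0.24, 0.31 and 0.85 and were not called.

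**Figure D2:**
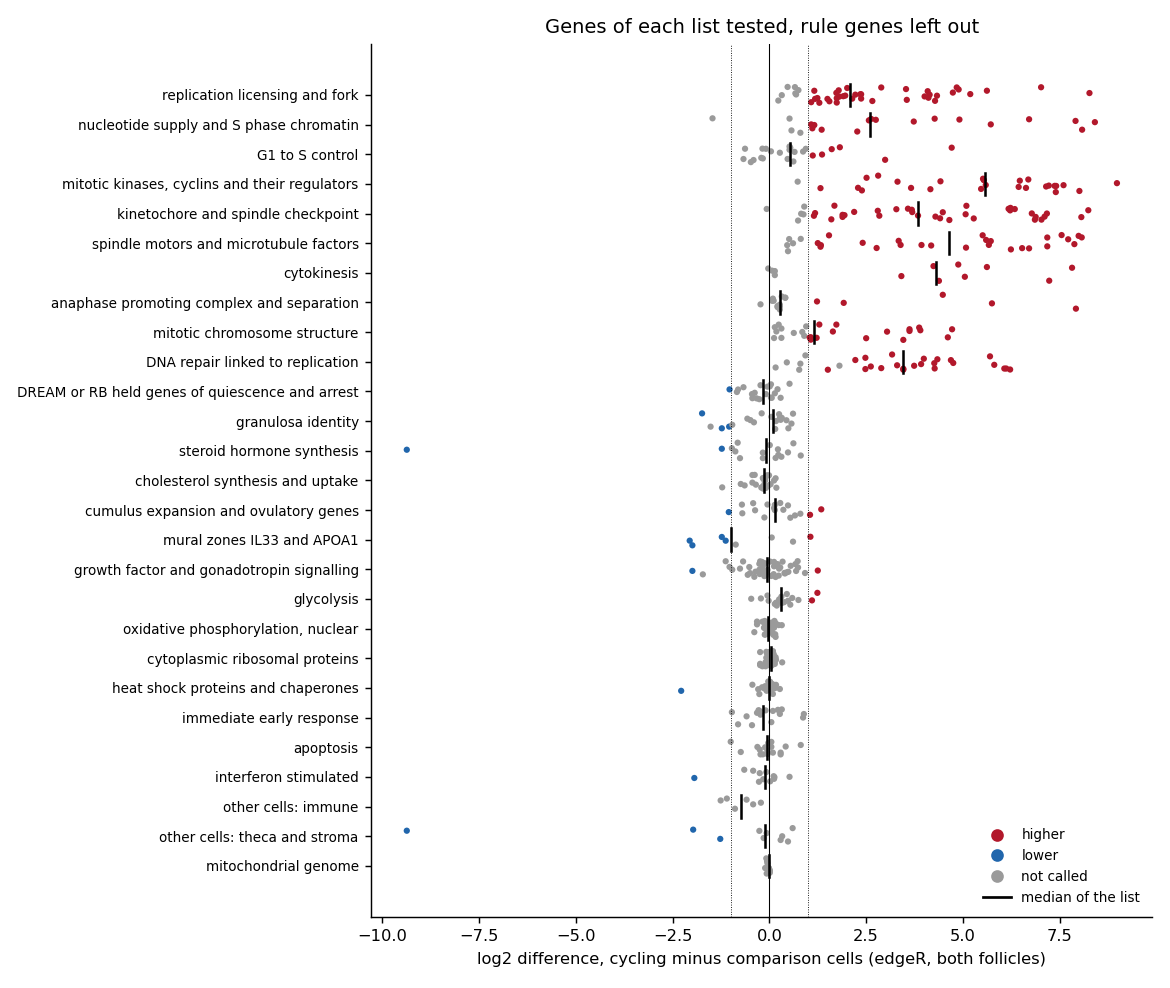
Log2 difference between cycling and comparison cells for each gene tested in the lists with at least 6 genes tested, coloured by call (adjusted p under 0.05 and a difference of at least 1, dotted lines), with a black bar at the median of the list. The 8 lists of replication, repair and mitosis from the replication fork to chromosome structure, other than G1 to S control and the anaphase promoting complex, have medians from 1.15 to 5.56, and the medians of the other lists lie between -1 and 0.52; the far left point is CYP17A1, with no UMI in the cycling cells, so that its fitted value is no measured size.

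Outside the lists, the 12 genes with the largest rise at 50 CPM or more were led by DIAPH3, a formin that nucleates actin, at 52.1 CPM in AF75 and 54.0 in AF76 against 0.221 and 0.148 (8.15, SE 0.22). PRR11 and CIP2A, both linked to mitosis, were at 53.7 and 92.2 CPM in AF75 and at 54.0 and 110 in AF76. The remaining genes of cell division or chromatin among them were ATAD5, which unloads PCNA, TRIP13, an ATPase of the spindle checkpoint, the histone gene HIST1H2AB, SASS6 of the centriole and KPNA2 (importin alpha), with C18orf54 and CCDC34. A further pair act outside the nucleus. FBLN1 (fibulin 1), a glycoprotein of the matrix, was at 156 and 123 CPM against 27.9 and 27.2 (2.36, SE 0.10). LGALS1 (galectin 1), a lectin, was at 264 and 313 CPM against 84.2 and 84.6 (1.77, SE 0.09). LGALS1 averaged 4.32 UMIs per cycling cell of AF75 and 5.95 of AF76, against 0.976 and 1.17 per comparison cell. It had a UMI in 309 of 428 and 94 of 118 cycling cells. Cells with 3 or 4 UMIs of the genes that chose the cells were between, at 115 CPM of FBLN1 in AF75 and 85.2 in AF76. In AF76 these were only 14 cells with a sum of 3 and 4 with a sum of 4.

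A second question was what the dividing cells kept of the granulosa programme. Of 20 identity genes tested 3 were called, all lower, against 1.85% of all genes: CYP19A1 (aromatase), AMHR2 and ESR1. The median log2 difference of the 20 was 0.10. At an adjusted p under 0.05 alone 6 of them were higher and 5 lower, against 1389 and 1146 of all 12341 genes tested. CYP19A1, which makes estradiol, was at 10.8 CPM in AF75 and 11.6 in AF76 against 23.5 and 32.4 (-1.23, SE 0.16), with -0.82 and no call against cells matched on VCAN. AMHR2, the receptor of anti-Müllerian hormone, was at 0.428 and 2.23 CPM against 2.16 and 5.36, and ESR1, estrogen receptor alpha, at 2.57 and 4.91 against 6.50 and 7.24. With VCAN matching AMHR2 was still called, at -1.41, from 3 UMIs in the cycling cells of AF75 and 5 in AF76. These counts are too low for its size to be read closely. ESR1 was not called with the matching, at -0.81. INHA was the most abundant member and missed the size of a call, at -0.57 (SE 0.08), with 12161.9 and 17612.3 CPM against 20485.1 and 23348.2. NR5A2 was at 0.27 (SE 0.09) and GATA4, a transcription factor of the gonad, at 0.32 (SE 0.10). INHBA, the beta A subunit that pairs to activin A, was at 3414.2 CPM against 1897.7 in AF75 and at 659 against 519 in AF76 (0.61, SE 0.09), and at 0.26 against cells matched on VCAN.

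In steroid synthesis 2 of 16 genes were called lower, against 1.85% of all genes: CYP19A1 and CYP17A1, an enzyme of theca cells that makes androgens. CYP17A1 had no UMI in the cycling cells, which against 1.61 CPM in the comparison cells of both follicles puts it at least 4.96-fold lower, at a floor of 3 counts over both follicles. CYP11A1 was at 0.01 (SE 0.08). CYB5A, which boosts CYP17A1, was at 221 and 339 CPM against 454 and 636 (-0.97, SE 0.09), just short of the size of a call. STAR, which carries cholesterol into mitochondria, was at 35.3 and 41.5 CPM against 77.8 and 58.7. None of 24 cholesterol genes was called by edgeR. At an adjusted p under 0.05 alone 6 of them were lower, against 1146 of all 12341 genes tested.

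The largest falls among follicle signals were those of TGFB3, ENPP2 and INSL3. TGFB3, a ligand of the TGF-beta family, was at 27.5 CPM in AF75 and 43.7 in AF76 against 119 and 157 (-1.99, SE 0.11). ENPP2 (autotaxin), the enzyme that makes lysophosphatidic acid, was at 14.3 and 16.5 CPM against 60.5 and 68.6 (-2.06, SE 0.14). INSL3, a peptide hormone known from theca and Leydig cells, was at 65.1 and 166 CPM against 328 and 507 (-1.97, SE 0.10). A single cell held 31.8% of the INSL3 UMIs of AF76's cycling cells. Of the 10 tested genes of the theca and stroma list 3 were lower, INSL3, CYP17A1 and TAGLN, a smooth muscle protein at 2.85 and 7.14 CPM against 7.12 and 16.8. That list of 12 genes summed to 75.2 CPM in AF75 and 190 in AF76 against 341 and 544, most of it INSL3, while LUM was at 0 in the cycling cells and COL1A1 at 0.143 and 2.23 CPM. The part of theca transcripts in the falls was not tested. IL33, a cytokine stored in the nucleus, fell from 2373.5 to 856 CPM in AF75 and from 2611.1 to 1295.5 in AF76 (-1.23, SE 0.09). The falls also stood in counts per cell, without scaling. Here TGFB3 averaged 0.451 UMIs in cycling cells of AF75 against 1.38, IL33 14 against 27.5 and ENPP2 0.234 against 0.701, while all genes together averaged 1.41 times more in AF75 and 1.38 times more in AF76. INHA by contrast averaged 199 UMIs per cycling cell against 237 in AF75 and 334 against 322 in AF76. The list of mural zones joins genes of an IL33 zone and of an APOA1 zone. Of its 8 genes 4 were lower and 1 was higher, against 1.85% and 4.33% of all genes. IL33, TGFB3 and ENPP2 were lower, with LIMCH1, an actin regulator, at 35.8 and 83.5 CPM against 98.2 and 142. DKK1 was higher, and APOA1, INHBA and MRO were not called, so the list did not fall as a whole. Against cells matched on VCAN, TGFB3, ENPP2 and INSL3 were still called, at -1.68, -1.67 and -1.83, and IL33 and LIMCH1 were not, at -0.93 and -0.87.

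Outside the lists, the genes with the largest fall included RGN, ACTG2, STRIP2, LRP11, LRP4, HSPB3, TMOD1, NYNRIN, WFDC1, LOX and RNF149. RGN (regucalcin), a calcium-binding protein, was at 17.0 and 18.7 CPM against 56.0 and 52.0 (-1.62, SE 0.14). ACTG2, a smooth muscle actin, was at 24.4 and 47.8 CPM against 81.4 and 116, and LOX (lysyl oxidase), which links collagen and elastin, at 186 and 347 against 540 and 586. LRP4, an LDL receptor relative that tunes WNT and BMP signals, was at 155 and 153 CPM against 414 and 374 (-1.35, SE 0.09). WFDC1 was at -0.98 against cells matched on VCAN and was not called, nor was RNF149 there.

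VCAN was higher in the cycling cells of AF75, and its distribution differed less in AF76. In AF75 the cycling cells had a median of 9 VCAN UMIs per 5000 (quartiles 3 and 24), against 3 (1 and 12) in the comparison cells, and in AF76 the median was 1 in both sets, with a UMI in 71.2% (62.1–79.2) of the cycling cells against 60.7% (59.6–61.8). The share of cycling cells was then counted in terciles of all cells within the limits by the level of a gene, a count with no test. In AF75, 10.9% (9.79–12) of the tercile with the lowest INHA were cycling, 2.44% (1.92–3.04) of the middle and 0.417% (0.222–0.711) of the highest. In AF76 these were 2.91% (2.30–3.62), 1.03% (0.682–1.5) and 0.574% (0.322–0.945). IL33 gave the same order, from 8.33% through 4.39% to 0.994% in AF75 and from 2.56% through 1.34% to 0.612% in AF76, and SERPINE2 likewise. VCAN gave the opposite order in AF75, 1.57%, 4.61% and 7.53%, and no even order in AF76, with 0.612%, 2.22% and 1.68%. For INHBA the share was higher in the higher terciles of both follicles, from 2.15% to 7.37% in AF75 and from 0.994% to 2.07% in AF76. APOA1 likewise ran opposite to IL33, with 1.89%, 5.83% and 5.99% in AF75 and 1.07%, 1.57% and 1.87% in AF76. For CYP11A1 the lowest and highest terciles of AF76, at 1.84% and 1.68%, lay within each other's intervals. The levels are shares of a cell's UMIs, so they fall where other genes rise.

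**Figure D3:**
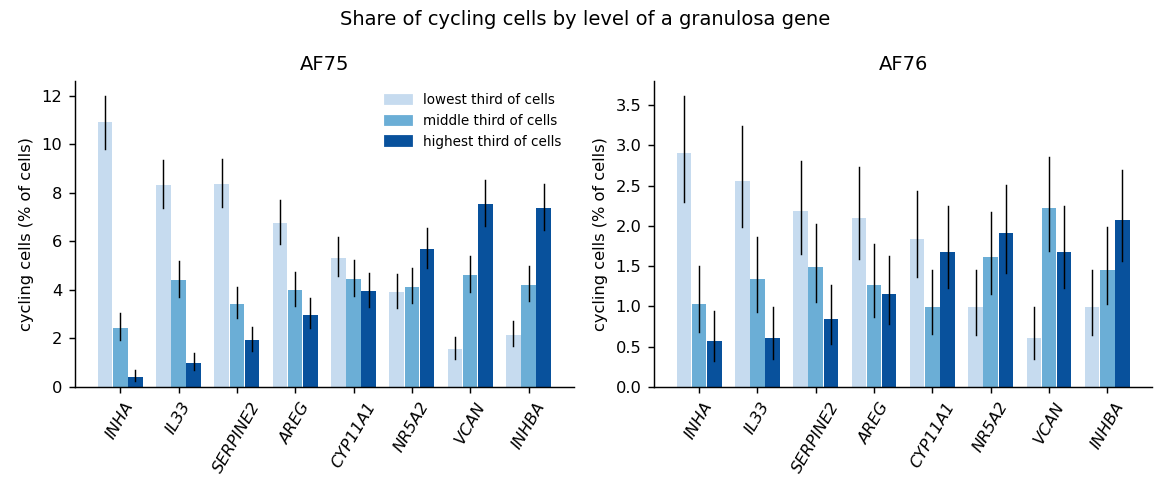
Percent of cells that were cycling in terciles of the cells of each follicle by the level of 8 granulosa genes per 10000 UMIs, with 95% Clopper-Pearson intervals that cover counting error only; the scales of the panels differ. The share falls from the lowest to the highest tercile of INHA from 10.9% to 0.417% in AF75 and from 2.91% to 0.574% in AF76.

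Genes of cumulus expansion gave 2 of 18 higher and 1 lower, against 4.33% and 1.85% of all genes tested. SHAS2, the pig gene of hyaluronan synthase 2, was at 177 CPM against 72.7 in AF75 and at 8.04 against 2.65 in AF76 (1.34, SE 0.12). PTX3 (pentraxin 3), which cross-links the hyaluronan matrix, was at 10.3 and 7.59 CPM against 5.27 and 3.24, and HBEGF, an EGF-like ligand, at 6.42 and 8.48 against 15.6 and 12.9. The calls of SHAS2 and PTX3 were lost against cells matched on VCAN, at 0.76 and 0.99. AREG (amphiregulin), an EGF-like ligand used by the study to mark mural cells, was at 1555.9 CPM against 2903.4 in AF75 and 3725.0 against 5355.9 in AF76 (-0.70, SE 0.08). Of the receptors and ligands of growth factors 2 of 48 genes were called, IGF1 higher and TGFB3 lower, against 762 of all 12341 genes. IGF1 rested on AF75, where it was at 14.8 CPM against 4.87, while it was at 2.23 against 2.92 in AF76. DKK1, a WNT inhibitor, was also called higher, with 89.4 against 30.5 CPM in AF75 and 39.7 against 34.9 in AF76. Neither IGF1 nor DKK1 was called higher against cells matched on VCAN.

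At an adjusted p under 0.05 alone, 1389 of all 12341 genes tested were higher and 1146 lower, 2535 together. Of 19 glycolysis genes 11 were higher and 0 lower at this threshold, with a median log2 difference of 0.31. The list summed to 10578.0 CPM in the cycling cells of AF75 against 7685.6, and to 7189.2 in AF76 against 6332.0. With the size of a call, 2 were higher, SLC16A3, a lactate carrier, at 124 CPM against 48.0 in AF75 and 42.0 against 21.5 in AF76, and HK2 (hexokinase 2). HK2 went opposite ways, with 31.7 against 12.5 CPM in AF75 and 1.34 against 2.99 in AF76, so its call rests on AF75. Neither was called against cells matched on VCAN. No oxidative phosphorylation gene (33 tested), cytoplasmic ribosomal protein gene (41) or mitochondrial gene (13) was called by edgeR, with medians of -0.03, 0.05 and -0.02, and at an adjusted p under 0.05 alone 5, 4 and 0 of them differed. No gene of apoptosis (18 tested) or of the immediate early response (16) was called, with 3 and 6 at an adjusted p under 0.05. In the heat shock list (21 tested) CRYAB alone was called, at 0.571 and 1.79 CPM against 4.51 and 3.96. In the interferon list (12 tested) IFIT1 alone was called, at 1.43 and 1.34 against 5.27 and 5.85. Both rested on few UMIs in the cycling cells, too few for the sizes to be read closely. HBB, the red blood cell transcript, was at 1.71 and 11.6 CPM against 2.61 and 47.9 and was called lower (-1.66, SE 0.23), with -0.44 and no call against cells matched on VCAN. Its part in the other results was not tested. GDF9, the 1 oocyte gene tested, was at 5.57 and 3.57 CPM against 5.03 and 5.18, and FBXO32, CEMIP and CCDC80 were not called either.

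How the cycling cells differed among themselves was read from 5000 UMIs per cell. The S phase lists (64 genes) gave a median of 11 UMIs per cycling cell in AF75 (quartiles 8.75 and 14.25) and of 12 in AF76 (10 and 16), against 4 and 4 in the comparison cells. The mitotic kinase and kinetochore lists (65 genes without CENPF) gave 19 (14 and 23) and 18.5 (13 and 24), against 2 and 2. Mitotic UMIs outnumbered S phase UMIs in 82.0% of AF75's cycling cells (351 of 428) and in 74.6% of AF76's (88 of 118), and S phase UMIs were the more numerous in 60 (14%) and 24 (20.3%). The 3 genes that chose the cells are themselves transcripts of G2 and mitosis. Across the cycling cells the counts of both lists went together, with Spearman's rho of 0.272 in AF75 and 0.337 in AF76, over cells of 1 library each that share its depth. Few cells stood far out: 1 cell of AF76 had 68 mitotic UMIs of 5000, and the highest S phase count was 44 in AF76 and 38 in AF75.

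**Figure D4:**
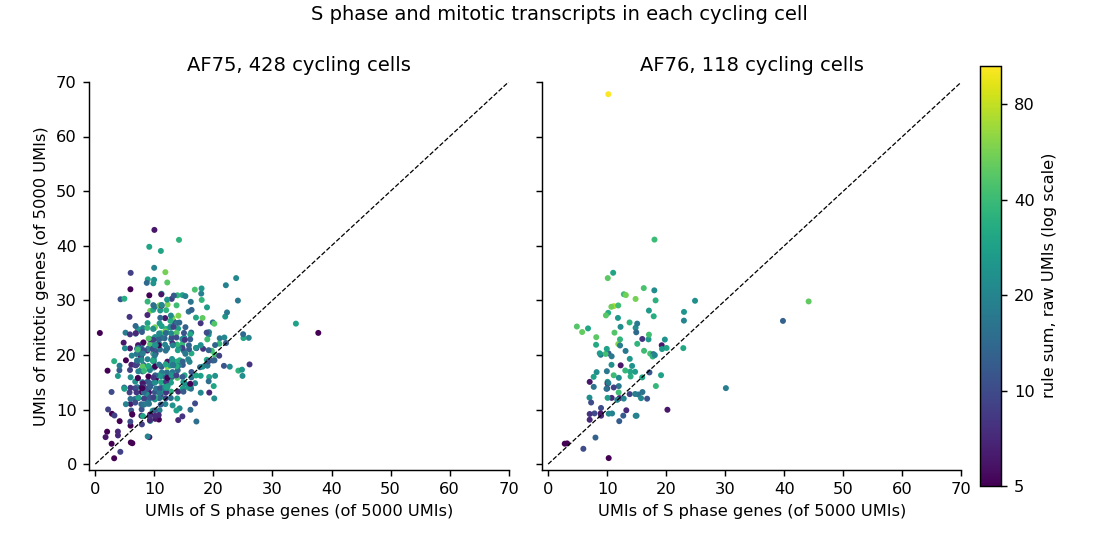
UMIs of S phase genes (horizontal) and of mitotic genes without those that chose the cells (vertical) in each cycling cell thinned to 5000 UMIs, one panel per follicle, coloured by the raw sum of the genes that chose the cells. Points are shifted by up to 0.3 UMI at random so that they do not hide each other, and 351 of 428 cells of AF75 and 88 of 118 of AF76 lie above the dashed line of equal counts.

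A few cells without a UMI of the 3 genes had more S phase transcripts than most of them. How many would do so by counting error around their median of 4 UMIs was not tested. Of the comparison cells 1.60% in AF75 (131 of 8171) and 2.25% in AF76 (163 of 7257) had 10 or more S phase UMIs of 5000, with a median of 2 and 3 mitotic UMIs. Among the cycling cells this held for 65.9% and 80.5%. Only 16 and 15 comparison cells (0.196% and 0.207%) had 10 or more mitotic UMIs, against 92.5% and 86.4% of the cycling cells. Cells with a sum of 1 to 4 were mixed: 6.32% in AF75 and 1.65% in AF76 had 10 or more mitotic UMIs.

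The lists were also read by the sum of the 3 genes, the value that chose the cells, as a description. The replication list was at 476 CPM in the comparison cells of AF75, at 1134.5 CPM in cells with a sum of 5 to 9, at 1369.6 with 10 to 19 and at 1489.7 with 20 or more, and in AF76 at 462, 1178.7, 1586.3 and 1667.3. Mitotic kinases and cyclins went from 218 through 1053.8 and 1405.6 to 1788.3 in AF75, and from 222 through 987 and 1319.7 to 1891.6 in AF76. Other division lists had no even course in AF76, where the spindle list was at 7891.8, 7434.0 and 10517.5 CPM over the same 3 classes of cycling cells and the anaphase promoting complex list at 732, 684 and 921. The identity list stood in AF75 at 32636.3 CPM in the comparison cells and then at 25359.8, 24337.3 and 23277.1, and in AF76 at 33498.2 and then at 29373.7, 29399.6 and 24758.7. Most of that sum was INHA, which went from 20485.1 to 12161.9 CPM in the cycling cells of AF75 and from 23348.2 to 17612.3 in AF76. The course of the sum is thus largely that of INHA. TGFB3 was at 33.2 CPM in AF75 and 31.4 in AF76 in cells with a sum of 5 to 9, near the values of cells with higher sums, and at 71.1 and 130 in cells with 3 or 4. These classes were small in AF76, with 19 cells at 5 to 9, 14 at 3 and 4 at 4. The AF76 values of this gene are thus not to be read closely.

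**Figure D5:**
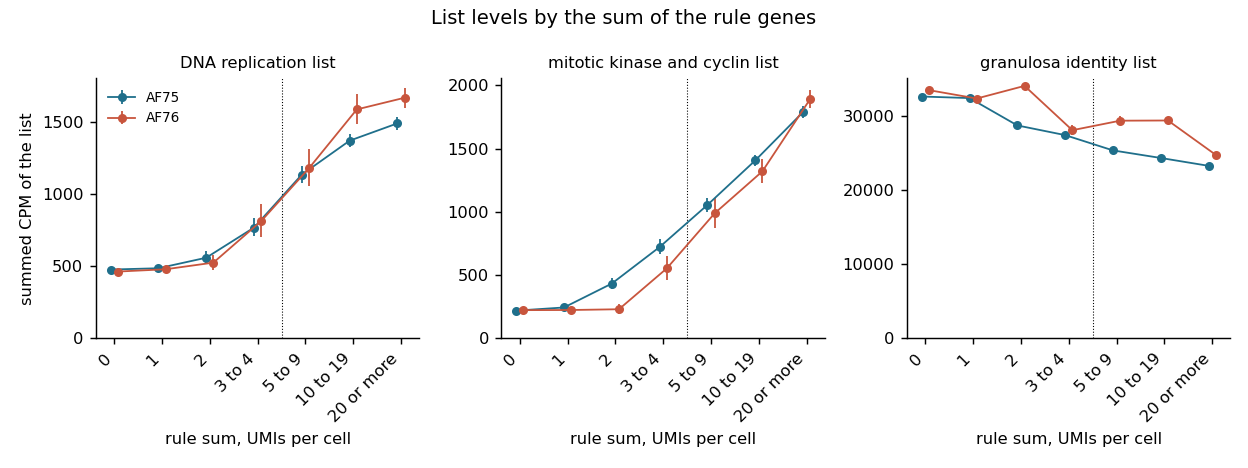
Summed CPM of the DNA replication list, the mitotic kinase and cyclin list and the granulosa identity list in cells grouped by the sum of TOP2A, UBE2C and CENPF, with 95% Poisson intervals, AF75 in blue and AF76 in red. The dotted line marks the border of the cycling cells. Both division lists climb across it, to 1489.7 and 1788.3 CPM in AF75 at 20 or more. The identity list, most of it INHA, ends lower in both follicles, with no even course in AF76.

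The last comparison set the cycling cells of AF76 beside those of AF75, as single libraries with no test. Over 6517 genes with at least 100 UMIs in the cycling cells of either follicle, the size of the log2 ratio between the follicles had a median of 0.20 and a 90th percentile of 0.57. In the comparison cells, which held far more UMIs, these were 0.10 and 0.30. Mitotic kinases and cyclins summed to 1504.6 CPM in AF75 and 1625.4 in AF76, kinetochore genes to 2229.7 and 2130.8, and replication genes to 1376.0 and 1583.5, a ratio of 1.15 (1.11–1.2) of AF76 to AF75. Single division genes differed more, such as CENPW at 584 and 305 CPM, PCLAF at 49.5 and 92.0 and PCNA at 59.7 and 99.1. In AF76 17 genes were 2 or more times higher and 160 were 2 or more times lower than in AF75. A gene was counted when it had 100 UMIs in either follicle, and AF75's cycling cells held 7005799 UMIs against 2240025. Genes of lower CPM could thus enter only through AF75, so the 2 counts are not to be weighed against each other.

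Highest in AF76 was CCDC80, a matrix protein, at 0.571 CPM in AF75 and 68.3 in AF76, a ratio of 120 (45.8–445), and 72.9 in the comparison cells. The intervals of these ratios are exact conditional ones, cover counting error only and do not count that UMIs cluster in cells. SELENOP (selenoprotein P) was at 34.8 and 175 CPM (ratio 5.04), and TXNIP, a thioredoxin inhibitor, at 51.1 and 138 (2.70), with 6.11 and 3.13 in the comparison cells. ENOSF1, a gene next to TYMS on chromosome 6, was at 19.3 and 67.4 CPM (3.5, 2.76–4.45), yet at 21.1 and 21.7 in the comparison cells (1.03, 0.966–1.09). For ENOSF1 1 cell held 22.5% of its UMIs in AF76, and without the highest cell of each follicle the ratio was 3.03. ATP5F1C, the gamma subunit of the ATP synthase, was at 1419.4 and 3450.0 CPM (2.43, 2.36–2.50), with 1550.3 and 2064.5 in the comparison cells (1.33). It was found in 427 of 428 and 117 of 118 cycling cells, and the ratio was also 2.43 without the highest cells. HSPB3, a small heat shock protein, was at 243 and 752 CPM (3.09), with 1.55 in the comparison cells, and RFESD at 57.8 and 139 (2.41), with 1.44.

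Lowest in AF76 was ARPP21, with 844 UMIs in the cycling cells of AF75 (120 CPM) and none in AF76, where 3 counts would give a ratio of 0.0111; it was at 46.0 and 0.621 CPM in the comparison cells. GTSF1, a gene of the piRNA pathway, and SLC10A4 had 113 and 136 UMIs in AF75 and none in AF76, where the upper limit of the 95% interval was 1.65 CPM. In the comparison cells GTSF1 was at 12.2 CPM in AF75 and 0.0197 in AF76, and SLC10A4 at 15.4 and 0.957. SFTPC (surfactant protein C), ALPK2 and NAV2 were at 54.2, 52.1 and 299 CPM in AF75 and at 0.893, 0.893 and 10.3 in AF76. These were low in the comparison cells of AF76 as well, with ratios of 0.127, 0.00879 and 0.0935, and of the SFTPC UMIs in AF75 22.6% came from 1 cell. The remaining pair of lowest genes, ENSSSCG00000003047 and ENSSSCG00000024568, have no symbol. Cells positive for CEMIP and CCDC80 were seen in AF76 alone: of 434 such cells with 5 or more UMIs of the pair, 8 were cycling (1.84%, 0.799–3.6), against 1.41% (1.14–1.73) of cells without a UMI of either.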

How the data were processed

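Somatic cells of 2 antral follicles went through 10x Genomics droplets and sequencing. The authors deposited a UMI count for each gene and barcode, made by CellRanger 6.0.2 against Sscrofa11.1 with no filter or normalization beyond its cell calling. Names for 1042 of the 7356 genes listed without a symbol were taken from a RefSeq table of the same assembly.

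The members and the 32 gene lists were chosen with earlier results of these data known. UMIs were summed per set and follicle and tested with edgeR 4.0.16 (TMM, filterByExpr, quasi-likelihood, R 4.3.3), with the follicle as a block because each pair of sums comes from 1 follicle. The test was run on simulated counts drawn with the means and spread fitted to these same sums, with known changes put into some genes. Such a run cannot show whether the spread itself is right. The 3 genes of the rule were left out. Between follicles no test was made. Intervals are exact, at 95%. Doublets were not removed; Scrublet in scanpy 1.11.5, DESeq2 1.42.0, scalings, filters, limits, thinning and comparison cells matched on total UMIs or on VCAN were alternatives.

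Named were the 5 markers, in each list the 4 largest called differences at 20 CPM or more, lists of up to 5 genes whole, 12 genes each way outside the lists at 50 CPM or more in both follicles, and 8 ratios each way. Others named beside these, such as single list members, INHA and the genes of the terciles, were chosen after their values were seen. Promoters were read with pysam 0.24.0. Some genes such as MKI67 and CCNA2 were not matched by name and are not analysed here. A few of the named genes and 1 promoter are not reported here.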

Additional observations from a re-analysis of the deposited data

Results flagged for a closer look

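Barcodes outside the limits also met the sum of 5 or more UMIs of TOP2A, UBE2C and CENPF, in data that the comparisons do not use. Among barcodes with over 5000 genes, 34.5% did so in AF75 (48 of 139) and 16.9% in AF76 (28 of 166), above the shares within the limits of 4.57% and 1.5%. Among barcodes with fewer than 2000 genes the shares were 0.392% in AF75 (18 of 4595) and 0.243% in AF76 (18 of 7397). Among barcodes with 2000 to 5000 genes and 7% or more mitochondrial UMIs the share was 3.63% in AF75 (7 of 193), and 1 of 142 in AF76. Whether the barcodes over the upper limit are single dividing cells or doublets was not tested.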

How the results depend on the processing

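Counts of higher genes stayed within 1.5 times of 534 under all 13 tested alternatives, from 395 to 536. The count of lower genes, 228, was less stable, at 50 with no replicate block, 103 with DESeq2, 135 with each cell thinned to 5000 UMIs and 145 with 500 to 6000 genes per cell. The follicle, as the shared source of both sums, sets the replicate block; without it 395 genes were higher, and 23 of the 89 named genes with a call lost it and no other named gene gained one. With VCAN matching 15 lost it, with DESeq2 9, with thinning 6, and with the other alternatives 0 to 5. No named call turned over under the tested alternatives. Without replicate 1, HK2 was at -1.16 and IGF1 at -0.39, both reversed, and without replicate 2 they were at 1.32 and 1.58. With 1 follicle left out no residual degrees of freedom remain, so such values have no test. The share of cycling cells in AF75 moved to 5.20% at 3 or more UMIs, 3.55% at 10 or more, 4.10% with 500 to 6000 genes, 2.71% with the rule after thinning and 3.51% over all deposited barcodes. In AF76 it moved to 1.21% with 500 to 6000 genes, 0.943% after thinning and 1.06% over all barcodes, and AF75 had the higher share under each. Genes 2 or more times higher in AF76 numbered 17, and 27 without the cells of highest Scrublet score. INSL3 without them was at a ratio of 1.88 in place of 2.54. The 118 cycling cells of AF76, with 2240025 UMIs, limit what is seen of genes under a few CPM there.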
